A study of Mus musculus with 6 samples.

Results

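The collagen chain genes were read in satellite cells, the muscle stem cells that lie under the basement membrane of the fibre. The 3 Magic-F1 samples were satellite cells in proliferation from skeletal muscle of female mice described as Magic-F1+/+. The 3 control samples were satellite cells of the same sex, tissue and state; their titles carry MLC3F, a term the labels do not explain; age, strain and the promoter of the transgene are likewise not stated there. Magic-F1 is an engineered factor derived from hepatocyte growth factor that activates the receptor MET. Total RNA of each sample was read on its own Agilent array in 1 colour. The design text calls the samples biological triplicates. The source names of all 6 samples end in rep1, and the replicate numbers used below were taken from the titles. No label says that the samples came from separate animals, so p-values measure the spread between these samples.

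Members were all non-control spots whose gene name was Col, 1 or 2 digits, a and a digit. They came to 98 spots of 80 probes for 41 genes, out of 43379 spots, 41174 probes and 28307 gene names. Col29a1 matched these letters but lies past the stated range of Col1a1 to Col28a1. RefSeq lists that name as a synonym of Col6a5, a type VI chain, and it was read with that type. Chains filed under other names, Col6a4, Col6a6 and Col26a1 among them, were not analysed here.

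Collagens are proteins whose 3 chains wind into a triple helix, which needs a glycine at the first place of each triplet of residues. Fibrillar collagens form the cross-striated fibres of connective tissue, type IV forms the sheet of the basement membrane, type VI forms beaded filaments between them, and FACIT collagens sit on the surface of fibrils. Type VI collagen is part of the niche of satellite cells, and the fibroblasts of muscle make most of its fibrillar collagen.

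Among the probes, 3 hold at least 6 glycine codons in the spacing of the triple-helix repeat. Each of these 3 genes was read for its main result by another, brighter probe. The 3 probes are given 5′ to 3′ as on the array, with the glycine codons (GGN) that recur with 2 codons between them in capitals. Positions are in the mm9 build; a probe that crosses introns spans more genome than its own length.
Col5a1, chr2:27842243-27844666, plus strand: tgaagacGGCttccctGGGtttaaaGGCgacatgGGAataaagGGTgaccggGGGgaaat
Col5a3, chr9:20590066-20590795, minus strand: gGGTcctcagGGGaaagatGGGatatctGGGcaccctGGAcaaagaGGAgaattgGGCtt
Col11a2, chr17:34189287-34189453, plus strand: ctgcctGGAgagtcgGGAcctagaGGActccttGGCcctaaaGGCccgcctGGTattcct
The Col5a3 probe holds 7 such codons, and the Col5a1 and Col11a2 probes hold 6 each.

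Levels below are log2 signals relative to the 75th percentile of the same array, so a level above 0 is brighter than that percentile. A probe not well above background in a sample is called dim there. A probe entered the test if it was dim in no sample of at least 1 group. Where a probe was dim throughout the other group, the change is given as "at least" a fold. For that bound, dim signals were set no lower than the lowest signal well above background on the same array. An adjusted p for such a probe belongs to its fitted change, not to the bound. A gene was read by its brightest tested probe. Called means a Benjamini-Hochberg adjusted p below 0.05 in limma, adjusted over all 21185 probes tested; changes are Magic-F1 minus control. Levels of different probes are not comparable with each other.

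The groups differed widely beyond the collagens. Of 14905 genes tested, 40.6% were called higher and 47.7% lower in Magic-F1, 88.3% in all. The median change of all tested genes was -0.15, and the groups did not overlap for 89.8% of them. Marker lists moved with the groups. All 9 tested satellite cell and myoblast markers were lower in Magic-F1, with a summed signal of 25.2 to 26.1 times the 75th percentile in Magic-F1 and 421 to 457 in control. Pax7, which defines satellite cells, was not well above background in any of the Magic-F1 samples, and Myod1 fell by 4.21. Of 10 macrophage markers, 9 were higher in Magic-F1, with summed signals of 1331 to 1397 in Magic-F1 and 412 to 439.9 in control. Of 11 fibroblast markers tested, 4 were higher and 5 lower, with summed signals of 205 to 213 in Magic-F1 and 380.0 to 392 in control. All 9 adipocyte markers tested were higher (472 to 500.4 in Magic-F1, 59.9 to 66.7 in control). Of tendon and cartilage markers, 5 of 7 tested were lower and 1 higher (10.1 to 10.49 in Magic-F1, 152 to 169 in control). Lower too were 8 of 8 neutrophil, 8 of 9 endothelial and 9 of 10 pericyte and smooth muscle markers tested, and 4 of 6 Schwann cell markers; the other 2 Schwann cell markers were higher, and that list's summed signal was 128 to 131 in Magic-F1 and 66.4 to 73.6 in control. The part of these cell types in the collagen values was not tested. In RNA from a mixed sample, fewer cells of a type and less RNA per cell cannot be told apart.

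Of the 41 collagen genes, 33 were tested: 12 were called higher, 15 lower and 6 were not called. That is 36.4% higher and 45.5% lower, close to the shares over all genes given above. Their median change was -0.03. The median size of change was 0.57 for the collagen genes and 1.07 for all genes tested. Without Col29a1, 11 were higher and 15 lower. Changes of at least 2-fold were called for 9 collagen genes, 5 higher and 4 lower. Without Col29a1, 4 were higher by that much. Of all genes, 52.7% passed that mark, 24.2% higher and 28.5% lower. No collagen gene reached 10-fold, a mark that 4.18% of all genes passed upward and 4.39% downward. The 3 arrays of each group did not overlap for 27 of the 33 collagen genes tested, beside 89.8% of all genes tested.

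The direction of small changes rested on the scaling of the arrays. When arrays were scaled to the spiked-in transcripts, the median of all genes moved to 0.32, a shift of 0.46, and 59.6% of the called genes were higher, against 45.9% with the 75th percentile. Under that scaling 18 collagen genes were called higher and 9 lower, against 12 higher and 15 lower with the 75th percentile. The median of the collagen genes minus that of all genes was 0.11 as reported, and between -0.042 (without Magic-F1 replicate 2) and 0.27 (after quantile normalization) over the alternatives.

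**Figure D1:**
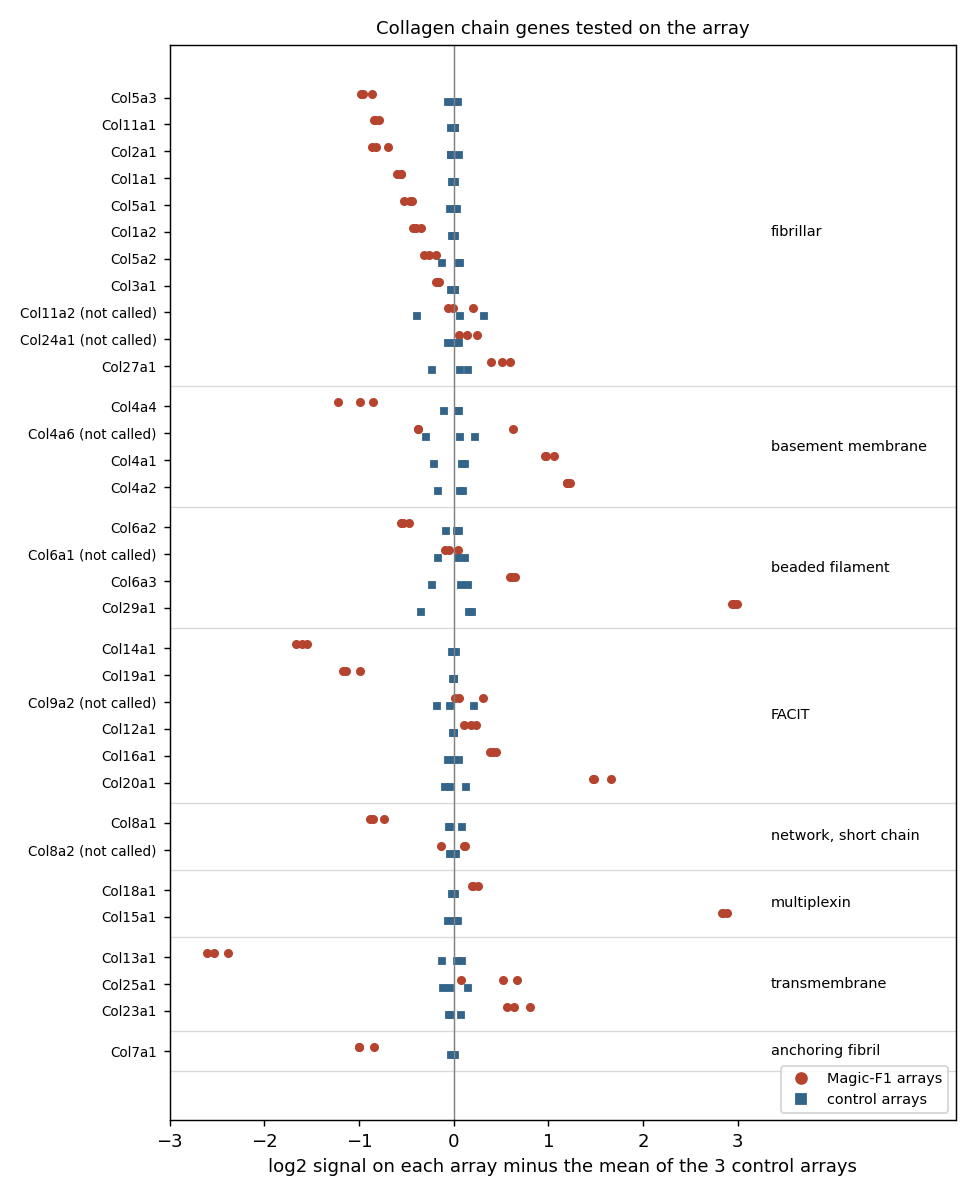
Level of each of the 33 tested collagen genes on each array, as log2 signal minus the mean of the 3 control arrays, grouped by collagen class; circles are Magic-F1 arrays and squares control arrays. With scaling to the 75th percentile, 8 of 11 fibrillar chains lie to the left and were called lower (3 called lower with spiked-in transcripts). Col15a1, Col29a1, Col20a1, Col4a2 and Col4a1 lie furthest to the right.

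All 11 fibrillar chains were tested, and 8 were lower, 1 higher and 2 not called in Magic-F1 cells. Of all genes, 47.7% were lower and 40.6% higher. Scaled to the spiked-in transcripts, 3 fibrillar chains were lower and 4 higher. By its brightest probe, no fibrillar chain changed 2-fold with the 75th percentile. A second Col2a1 probe, described below, was at least 2.07-fold lower. Their median change was -0.39, which is -0.24 relative to the median of all genes. That difference was -0.095 after quantile normalization and -0.13 with dim probes kept. By the brightest probes, the falls with the 75th percentile ran between 1.13-fold for Col3a1 and 1.91-fold for Col5a3.

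Type I collagen, the main fibril of tendon, bone and skin, is made of 2 Col1a1 chains and 1 Col1a2 chain. Col1a1 stood at 6.53, 6.48 and 6.52 on the Magic-F1 arrays, against 7.06, 7.08 and 7.10 on the control arrays. Its signal was 1.48-fold lower (log2 change -0.57, SE 0.041, adjusted p = 2.34e-05). The groups were well apart, and the probe was spotted 10 times on each array with an SD over spots of at most 0.044. The other Col1a1 probes fell by 0.69 and 0.97. With the spiked-in transcripts the change of the main probe was -0.11 (adjusted p = 0.16 in limma), and the call was lost.

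Col1a2 stood at 8.27, 8.25 and 8.33 in Magic-F1, against 8.67, 8.66 and 8.69 in control, again with no overlap. Its change was -0.39 (SE 0.044, adjusted p = 0.000221). Its direction turned to 0.24 after quantile normalization (adjusted p = 0.00274) and to 0.07 with the spiked-in transcripts (adjusted p = 0.268). The 250 bases before the Col1a2 start are shown because both type I chains moved the same way with the 75th percentile and the mouse Col1a2 promoter is known to hold a CCAAT box. They are from RefSeq on GRCm38.p6, plus strand, with each match to CCAAT and GGGCGG in capitals.
Col1a2 upstream, chr6:4505368-4505617: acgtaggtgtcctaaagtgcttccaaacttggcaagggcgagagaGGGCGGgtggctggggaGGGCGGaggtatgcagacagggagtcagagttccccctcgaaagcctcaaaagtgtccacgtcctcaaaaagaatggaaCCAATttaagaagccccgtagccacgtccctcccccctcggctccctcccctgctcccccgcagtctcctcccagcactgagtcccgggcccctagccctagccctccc
CCAAT begins 109 bases before the start, and GGGCGG begins 205 and 188 bases before it; none of the matches overlap. Motifs were searched on both strands in windows of 300 bases, each holding 250 bases before a start and 50 after it. CCAAT was found in 12 of 35 windows of 32 matched collagen genes, against 37.4% of all 32851 windows. GGGCGG was found in 20 of the 35 windows, against 35.7% of all. TATAAA was found in 5 of the 35, against 13.6% of all. A match describes letters only.

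Col3a1 encodes the only chain of type III collagen, common in the soft connective tissue of muscle. It stood at 7.07, 7.09 and 7.10 in Magic-F1 cells, against 7.23, 7.27 and 7.28 in control cells. The groups did not overlap, yet the change was only -0.17 (SE 0.041, adjusted p = 0.00792). It became 0.32 after quantile normalization and 0.29 with the spiked-in transcripts. A second probe, 27192 bases away, fell by 0.41.

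Type V chains join type I fibrils and limit their width. Col5a1 stood at 4.86, 4.81 and 4.88 in Magic-F1 and at 5.33, 5.36 and 5.29 in control, a change of -0.48 (SE 0.047, adjusted p = 0.000107). Col5a3, the least common of the type V chains, stood at 2.68, 2.66 and 2.77 in Magic-F1, against 3.69, 3.65 and 3.57 in control. Its fall of 0.93 (SE 0.055, adjusted p = 8.62e-06) was the largest among the fibrillar chains by their brightest probes, and it stayed called under each alternative run. By the helix probes printed above, Col5a1 fell by 0.28 and Col5a3 fell by 0.99. Col5a2 stood at 2.26, 2.20 and 2.13 in Magic-F1 and at 2.52, 2.51 and 2.32 in control. Its change of -0.25 (SE 0.072, adjusted p = 0.0155) lost its call in 7 of 19 alternatives; one of these, the spiked-in transcripts, gave 0.21. Col5a1 lost its call with the spiked-in transcripts (-0.01, adjusted p = 0.845).

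**Figure D2:**
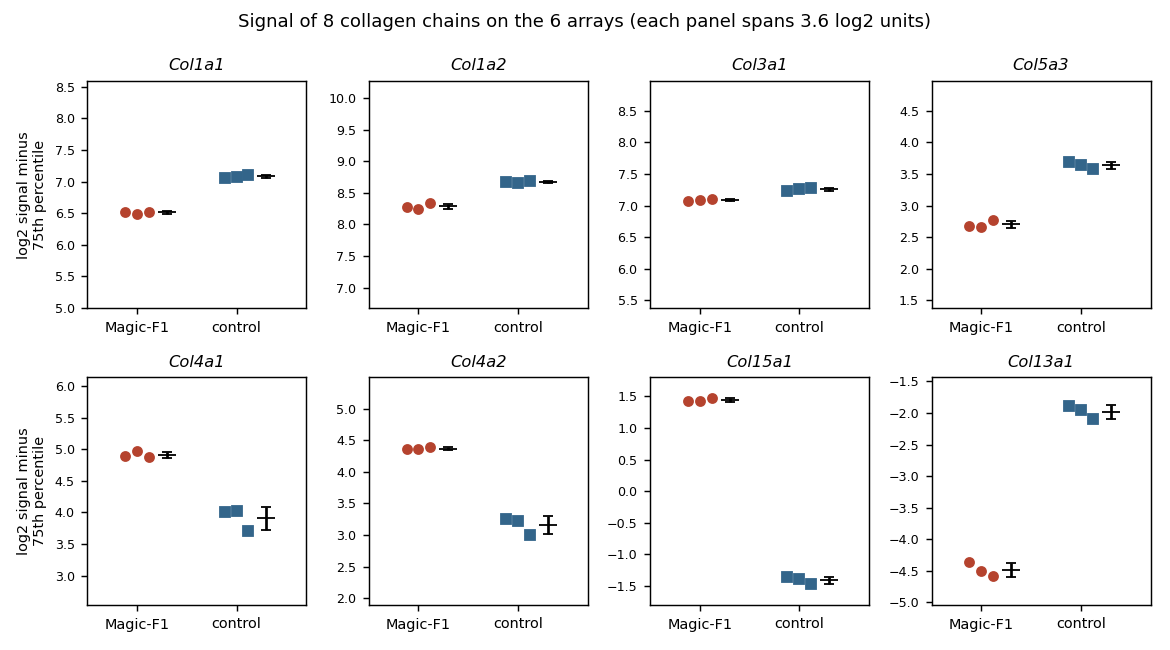
Log2 signal relative to the array's 75th percentile for 8 collagen chains on the 3 Magic-F1 arrays (circles, left) and the 3 control arrays (squares, right), with the group mean and SD (n = 3) beside the points. The groups stand apart in each panel, by 0.17 for Col3a1 and by 2.85 for Col15a1.

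The remaining fibrillar chains were type II, XI, XXIV and XXVII. Col11a1, which nucleates fibrils, was 1.77-fold lower in Magic-F1 (log2 change -0.82). Col11a2, its partner, changed by 0.05 (adjusted p = 0.82), and its helix probe printed above by 0.07; neither was called. Col24a1 changed by 0.15 (adjusted p = 0.0758). Col27a1, a minor fibrillar chain of cartilage, was the one fibrillar chain called higher with the 75th percentile, 1.42-fold (log2 change 0.50), and its second tested probe rose by 0.94.

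Col2a1, the chain of cartilage fibrils, was 1.73-fold lower (log2 change -0.79) by its brighter probe. A second probe, spotted 10 times, starts 20 bases further on. Both are shown because they share 40 bases, in capitals, and still gave changes of unlike size.
Col2a1 brighter probe, chr15:97806505-97806564, minus strand: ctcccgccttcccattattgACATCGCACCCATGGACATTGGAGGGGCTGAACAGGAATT
Col2a1 second probe, chr15:97806485-97806544, minus strand: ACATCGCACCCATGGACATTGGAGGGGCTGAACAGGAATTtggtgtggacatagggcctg
The second probe was dim in all 3 Magic-F1 samples and entered the test through control alone. By the bound it was at least 2.07-fold lower in Magic-F1, and its fitted change was -2.04 (adjusted p = 1.33e-05). Its measured means were -6.30 in Magic-F1 and -4.26 in control. With the median over its probes, the Col2a1 change was -1.41, beyond that of Col5a3.

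Type IV chains are the scaffold of basement membranes. Of the 6, 4 were tested: 2 were higher, 1 lower and 1 not called, beside 40.6% higher and 47.7% lower of all genes. Col4a1 and Col4a2, which form the type IV trimer found in nearly every basement membrane, both rose. Col4a1 stood at 4.89, 4.97 and 4.87 in Magic-F1, against 4.0, 4.02 and 3.70 in control. Its signal was 2.0-fold higher (log2 change 1.0, SE 0.097, adjusted p = 9.73e-05), and its other probe rose by 0.56. Col4a2 stood at 4.36, 4.35 and 4.39 in Magic-F1, against 3.26, 3.22 and 3.00 in control. That is 2.31-fold (log2 change 1.21, SE 0.079, adjusted p = 1.41e-05), and its other probe rose by 1.17. The groups did not overlap for either chain, and both stayed called higher under each alternative run. One probe of each is shown, since these chains rose together.
Col4a1 brighter probe, chr8:11199846-11201680, minus strand: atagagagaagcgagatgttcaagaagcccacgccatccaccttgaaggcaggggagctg
Col4a2 second probe, chr8:11448180-11448239, plus strand: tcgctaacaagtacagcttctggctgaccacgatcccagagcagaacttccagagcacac
The 2 genes lie head to head on the same chromosome, on opposite strands.

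The other type IV chains form networks in kidney, lung and a few other tissues. Col4a4 stood at -2.81, -3.05 and -2.68 in Magic-F1, against -1.77, -1.93 and -1.77 in control, with no overlap. It was 2.03-fold lower (log2 change -1.02, SE 0.106, adjusted p = 0.000135). This rests on 1 probe of 60 bases whose stated position covers only 29, and a second Col4a4 probe was dim in all 6 samples. Col4a6 did not pass by its brighter probe (-0.04, adjusted p = 0.896), with arrays that overlapped. A second Col4a6 probe was dim in all 3 control samples and entered the test through Magic-F1 alone. By the bound it was at least 1.44-fold higher in Magic-F1, and its fitted change was 2.62 (adjusted p = 1.13e-06). Col4a3 and Col4a5 were dim in all 6 samples.

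Col15a1 and Col18a1 encode the multiplexins, which carry sugar side chains and sit at the outer face of basement membranes. Col15a1 stood at 1.43, 1.42 and 1.48 in Magic-F1 cells, against -1.36, -1.39 and -1.47 in control cells. It was 7.22-fold higher (log2 change 2.85, SE 0.050, adjusted p = 6.62e-08), with a range of 2.38 to 3.32 over the alternatives. A second Col15a1 probe was dim in all 6 samples. The probe that was read is shown because it carried the largest change of a collagen chain well above background in both groups.
Col15a1, chr4:47325103-47325162, plus strand: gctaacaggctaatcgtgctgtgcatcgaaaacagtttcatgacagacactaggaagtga
Col18a1, whose product is cut to release endostatin, stood at 5.82, 5.81 and 5.87 in Magic-F1 and at 5.63, 5.62 and 5.60 in control. It rose by far less (log2 change 0.22, SE 0.042, adjusted p = 0.00307), and its other probe rose by 0.26.

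Type VI collagen joins Col6a1, Col6a2 and 1 further chain, Col6a3 or a relative of it. All 4 members were tested: 2 were higher, 1 lower and 1 not called, beside 40.6% higher and 47.7% lower of all genes. With the spiked-in transcripts none of the 4 was lower. Col6a1 stood at 3.90, 3.86 and 3.99 in Magic-F1, against 4.07, 4.0 and 3.79 in control. These values overlapped, and the change was -0.03 (SE 0.087, adjusted p = 0.719); it was 0.43 with the spiked-in transcripts. Col6a2 stood at 2.87, 2.89 and 2.96 in Magic-F1, against 3.46, 3.48 and 3.34 in control. It was 1.43-fold lower (log2 change -0.52, SE 0.057, adjusted p = 0.000186), and its other probe fell by 1.78 (-1.15 with the median over both). With the spiked-in transcripts the Col6a2 change was -0.06, and the call was lost.

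Col6a3 stood at -1.76, -1.79 and -1.81 in Magic-F1, against -2.25, -2.33 and -2.64 in control. It was 1.54-fold higher (log2 change 0.62, SE 0.106, adjusted p = 0.0016), with no overlap. A second Col6a3 probe was dim in all 6 samples and not tested, with measured means of -6.55 in Magic-F1 and -5.31 in control. Col29a1 stood at -3.04, -3.08 and -3.10 in Magic-F1, against -5.88, -6.38 and -5.85 in control. Its probe was dim in all 3 control samples and entered the test through Magic-F1 alone. By the bound it was at least 3.75-fold higher in Magic-F1. The fitted change was 2.96 (adjusted p = 4.08e-06), and the measured means were -3.07 in Magic-F1 and -6.04 in control. With normexp background correction, which adds an offset to every signal, the log2 change was 0.40. That is below the bound (1.91 on the log2 scale), which therefore holds for the main background correction only. The probe crosses an intron.
Col29a1, chr9:105765145-105766504, minus strand: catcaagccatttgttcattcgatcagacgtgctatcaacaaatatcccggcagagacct

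Of 9 FACIT chains on the array, 6 were tested. By the brightest probe 3 were higher, 2 lower and 1 not called, beside 40.6% higher and 47.7% lower of all genes. By the median over probes 2 FACIT chains were higher and 3 lower. Col12a1, described last, is the chain that turned. Col14a1, found where fibrils bundle in tendon and muscle, stood at -2.65, -2.60 and -2.71 in Magic-F1 cells, against -1.06, -1.05 and -1.02 in control cells. It was 3.04-fold lower (log2 change -1.61, SE 0.048, adjusted p = 4.44e-07), or -1.02 with normexp. A second Col14a1 probe was dim in all 6 samples. Col19a1 stood at -1.39, -1.37 and -1.22 in Magic-F1, against -0.23, -0.23 and -0.22 in control, and was 2.14-fold lower (log2 change -1.10). Its other tested probe fell by 2.13. Col20a1 stood at -2.94, -2.93 and -2.75 in Magic-F1, against -4.45, -4.50 and -4.28 in control. It was 2.91-fold higher (log2 change 1.54, SE 0.084, adjusted p = 6.07e-06), but by only 0.29 with normexp (adjusted p = 0.00114). Col16a1, found near basement membranes, was 1.33-fold higher. Col9a2, of cartilage, changed by 0.13 (adjusted p = 0.373).

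Col12a1, which coats type I fibrils, gave opposite calls by its 2 probes, which lie 5058 bases apart. The brighter probe stood at 0.10, 0.03 and 0.16 in Magic-F1, against -0.08, -0.07 and -0.08 in control, a change of 0.18 (SE 0.049, adjusted p = 0.0148). The dimmer probe stood at -2.19, -2.07 and -2.03 in Magic-F1, against -0.87, -0.83 and -1.08 in control, a fall of 1.17 (SE 0.085, adjusted p = 2.28e-05). The groups did not overlap for either probe. The counts above use the brighter probe; with the median over both, the change was -0.50. The sequence of the probe that fell is shown.
Col12a1 dimmer probe, chr9:79452328-79452387, minus strand: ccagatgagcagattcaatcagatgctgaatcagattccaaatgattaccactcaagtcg

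The short-chain network collagens were read by type VIII, found around vessels. Col8a1 stood at 5.94, 5.97 and 6.09 in Magic-F1, against 6.78, 6.78 and 6.91 in control. It was 1.77-fold lower (log2 change -0.83, SE 0.066, adjusted p = 3.78e-05). A second Col8a1 probe was dim in all 6 samples. Col8a2 stood at -2.20, -2.44 and -2.19 in Magic-F1, against -2.29, -2.28 and -2.34 in control. Its arrays overlapped, and it was not called (0.03, adjusted p = 0.735).

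Among the transmembrane collagens, Col13a1, which helps to mature the junction of nerve and muscle, stood at -4.37, -4.51 and -4.59 in Magic-F1, against -1.89, -1.95 and -2.10 in control. It was 5.69-fold lower (log2 change -2.51, SE 0.084, adjusted p = 7.15e-07; -1.05 with normexp), the largest fall of a collagen chain by its main probe. Its other probe, dim in all 3 Magic-F1 samples, was at least 3.66-fold lower. Col23a1 gave opposite calls: its brighter probe rose by 0.67 and another, 2505 bases away, fell by 0.23. These 2 probes were close in brightness, and in 5 alternatives the gene's value was negative. It counts as higher above by the brighter probe. Col25a1, needed for motor nerves to reach muscle, was called higher (log2 change 0.42, adjusted p = 0.0477), but its arrays overlapped and the call was lost in 10 of 18 alternatives. Col7a1, the anchoring fibril of skin, was 1.92-fold lower.

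The 8 genes not tested were Col4a3, Col4a5, Col9a1, Col9a3, Col10a1, Col17a1, Col22a1 and Col28a1. Of these, Col9a3 and Col22a1 came closest, well above background on 1 Magic-F1 array and 2 control arrays each. Among 16 genes with several tested probes, 13 had the same call by each probe, 2 had opposite calls and Col4a6 was called by 1 of its probes only. Within each of the 2 slides, 26 of the 27 called genes kept their sign. A gene whose groups do not overlap must keep it, so that count adds no separate check. Col25a1, whose groups overlapped, changed by 0.67 on the slide with replicates 1 and 3 and by -0.07 on the slide with replicate 2.

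Pairs of chains that share a trimer, a family or a locus were compared by their balance. The log2 difference between 2 chains on the same array does not depend on how arrays are scaled by a single factor. Of 13 pairs listed, 9 had both chains tested, and the groups did not overlap for 8 of these. For single genes, the groups did not overlap for 89.8% of all tested. The exact permutation test on 3 against 3 arrays cannot go below p = 0.1, the value of each of those 8 pairs (0.113 after adjustment over the 9 pairs, 2-sided). The balance of Col15a1 against Col18a1 was 2.64 higher in Magic-F1 (SE 0.025), and that of Col6a1 against Col6a2 was 0.49 higher (SE 0.052). The balance shifted by -1.14 (SE 0.089) for Col6a2 against Col6a3, by -0.87 (SE 0.212) for Col11a1 against Col11a2 and by -0.85 (SE 0.10) for Col8a1 against Col8a2. Smaller shifts were found for Col5a1 against Col5a2 (-0.22), Col4a1 against Col4a2 (-0.21) and Col1a1 against Col1a2 (-0.18). The Col1a1 probes themselves differed by more than that last shift. Likewise, the changes of the Col4a1 probes (1.0 and 0.56) differed by more than the Col4a1 against Col4a2 shift. Those of the Col6a2 probes (-0.52 and -1.78) differed by more than either shift that involves Col6a2. With the median over a gene's probes, Col6a1 against Col6a2 was 1.12 and Col6a2 against Col6a3 -1.77. Col3a1 and Col5a2, which are neighbouring genes, differed by 0.08 between groups with overlap (exact p = 0.4).

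**Figure D3:**
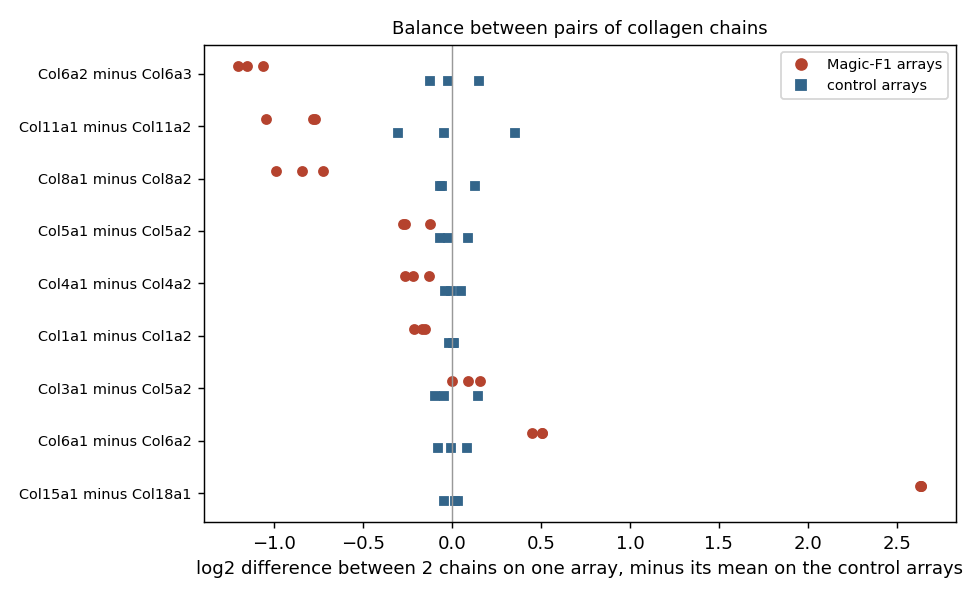
Log2 difference between 2 collagen chains on the same array, minus its mean on the 3 control arrays, for the 9 pairs with both chains tested; circles are Magic-F1 arrays and squares control arrays. Groups overlap for Col3a1 and Col5a2 only, and Col15a1 against Col18a1 stands furthest out at 2.64.

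**Figure D4:**
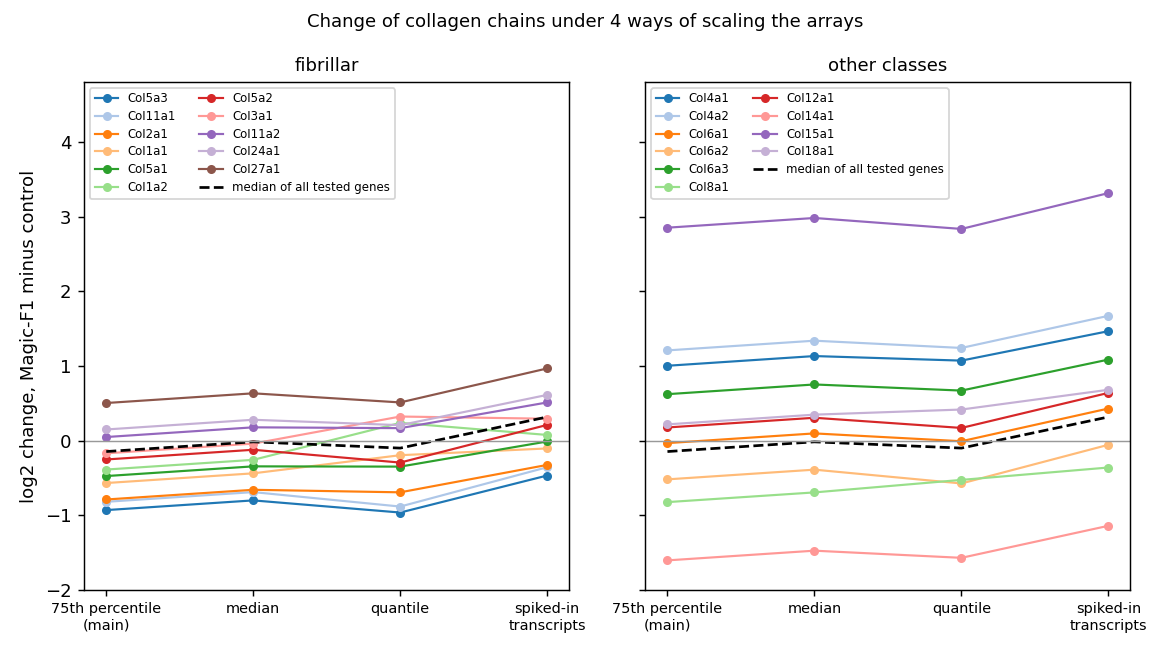
Log2 change, Magic-F1 minus control, of the 11 fibrillar chains (left) and of 10 chains of other classes (right) under 4 ways of scaling the arrays; the dashed line is the median of all tested genes. The median of all genes moves to 0.32 with the spiked-in transcripts, where Col1a2, Col3a1 and Col5a2 are above 0, while Col15a1, Col4a1 and Col4a2 are at or above 1.0 under each of the 4.

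Of 20 genes that modify and fold procollagen in the endoplasmic reticulum, 19 were tested: 7 were higher, 11 lower and 1 not called, beside 40.6% higher and 47.7% lower of all genes. Their median change was -1.17 beside -0.15 for all genes. P4ha2, a catalytic subunit of prolyl 4-hydroxylase, stood at 3.52, 3.47 and 3.55 in Magic-F1, against -2.03, -2.20 and -2.04 in control. It was 48.6-fold higher (log2 change 5.60, SE 0.062, adjusted p = 2.45e-08), and its other probe was not tested; with normexp the change was 4.69. Serpinh1, the collagen chaperone HSP47, stood at 3.53, 3.46 and 3.52 in Magic-F1, against 6.41, 6.38 and 6.42 in control, and was 7.47-fold lower (log2 change -2.90, SE 0.044, adjusted p = 4.64e-08). Both stood far apart between groups.

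Plod2, which hydroxylates lysines of the chain ends, fell by 1.98. Its relatives Plod1 and Plod3, added after their values were seen, rose by 1.20 and 0.73. Fkbp10, a chaperone that works with Plod2, fell by 1.62. P3h1, a prolyl 3-hydroxylase, fell by 1.82, and P3h2, of basement membrane collagen, was at least 5.50-fold lower because its probe was dim in Magic-F1 (log2 change -0.82 with normexp). P3h4, a partner of lysyl hydroxylation, fell by 1.69, and Creb3l1, a transcription factor of Col1a1 in bone, by 1.51. The partners of P3h1 in its complex, picked out after their values were seen, were split: Ppib fell by 1.49 and Crtap rose by 0.68.

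Of 13 genes that cut procollagen ends or crosslink fibrils, 10 were tested, with 2 higher and 8 lower, beside 40.6% and 47.7% of all genes. Their median change was -0.72 beside -0.15. Pcolce2, an enhancer of the C-proteinase, was at least 9.45-fold lower in Magic-F1, where it was dim (log2 change -1.35 with normexp). Its relative Pcolce fell by 0.78 (-0.14 after quantile normalization), and Bmp1, the C-proteinase itself, fell by 1.10. Adamts14, which cuts the other end, fell by 1.14, while its relative Adamts2, added after its value was seen, rose by 0.62. Of the lysyl oxidases that crosslink collagen, Loxl4 fell by 2.56 (-1.40 with normexp), Loxl2 by 0.67 and Lox by 0.65, while Loxl3 rose by 0.87 (0.24 with normexp). Loxl2 lost its call with the spiked-in transcripts (-0.20, adjusted p = 0.106).

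Of 10 receptors and uptake genes, 8 were tested, with 4 higher and 4 lower, beside 40.6% and 47.7% of all genes. Lair1, an inhibitory collagen receptor of leukocytes, stood at 3.97, 4.08 and 4.02 in Magic-F1, against -1.69, -1.79 and -1.68 in control, a 53.5-fold rise (log2 change 5.74, SE 0.056, adjusted p = 2.24e-08). Of the macrophage markers given above, 9 of 10 were higher too, as were 40.6% of all genes. A link between these markers and Lair1 was not tested. Gp6, the collagen receptor of platelets, was at least 13.3-fold lower, and its probe was dim in all 3 Magic-F1 samples. Mrc2, which takes up collagen fragments, rose by 1.41. Itga11, the integrin chain of fibroblasts that binds fibrillar collagen, rose by 1.18, and Itga1, which binds type IV collagen, fell by 2.36. Pepd, which frees proline from collagen fragments, rose by 1.16. The discoidin receptors Ddr1 and Ddr2 fell by 1.7 and 0.22.

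**Figure D5:**
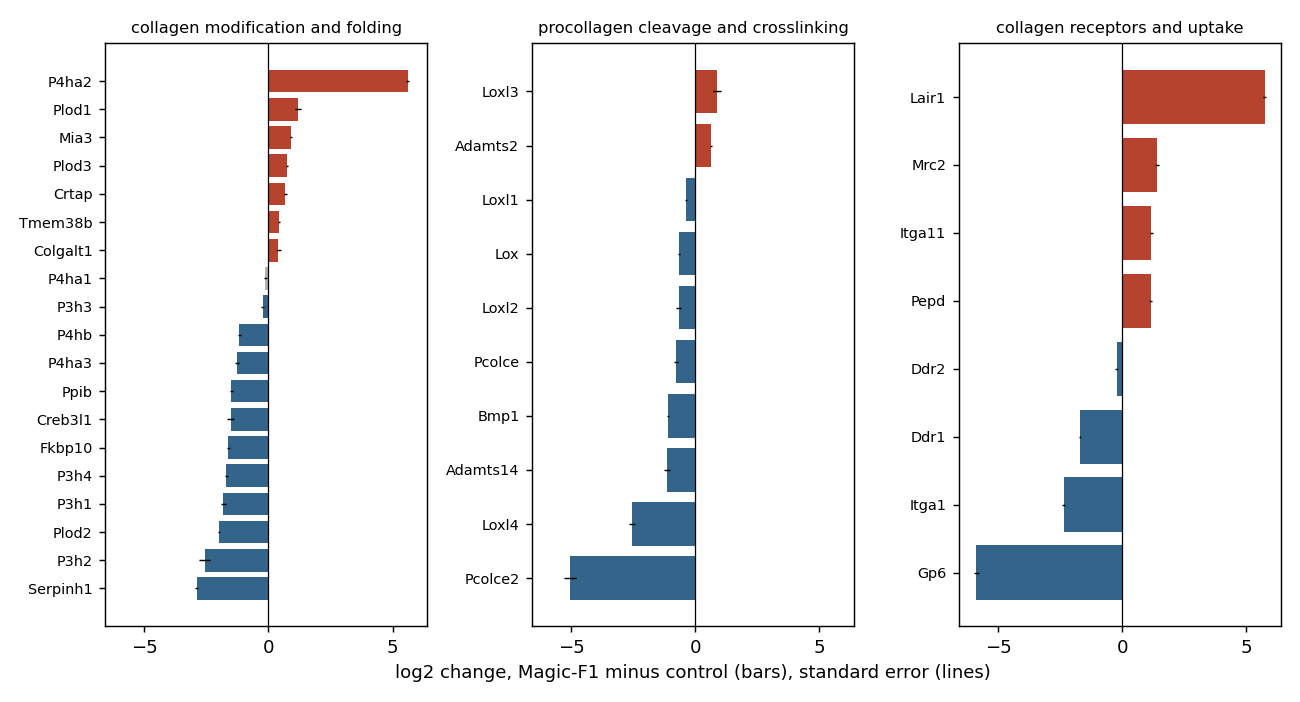
Log2 change, Magic-F1 minus control, with its standard error, for the tested genes that modify, cut, crosslink or bind collagen; red bars were called higher, blue lower and grey not called, with scaling to the 75th percentile. P4ha2 and Lair1 rise by more than any collagen chain gene, and Gp6 and Pcolce2, drawn at their fitted values, are not well above background in Magic-F1.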

How the data were processed

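The 6 RNA samples carried the dye Cy3, as the labels' protocols state, with 1 array each. The deposited intensity values were made, per the file headers, by Agilent Feature Extraction 10.5.1.1, which subtracts background and corrects each spot, with probe positions in mm9. The authors also deposited a table of log2 values, used only as an alternative.

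The processed intensity was put on the log2 scale minus each array's percentile 75 over non-control spots. Outlier spots were left out and spots of a probe averaged. Probes took RefSeq names by accession (25097) or the files' names (16077). The fit was lmFit and eBayes of limma 3.58.1, run in R 4.3.3, with no term but group. Between 49.2% and 52.0% of spots were well above background and none was saturated; the number of arrays limits the precision, with a median residual SD of 0.0928.

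On simulated data with 21185 probes, 50 were changed by each amount and 20985 were left unchanged. Changes of 0.5, 1 and 2 were recovered for 60%, 84% and 94%, and -1 for 82%, with 15 false calls among 20985. The real data differ, with 88.3% of genes called, and the simulation held no scaling step. Its recovery and false calls are therefore not those of the test on the real data.

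Members and lists were chosen with earlier results of these data known. Every member is named. Values on every array are given for types I, III, V, VI, VIII, XII, XIV, XV and XVIII, and for Col4a1 and Col4a2. They are also given for the 4 other tested chains with the largest change. Up to 8 genes are given of each processing list, called genes first, then by size. Ppib, Crtap, Plod1, Plod3 and Adamts2 were added after their values were seen. Protein sequences were not used here. Alternatives covered background correction, scaling, the filter on dim probes, slide, replicate block, variance model, the deposited table, probe choice and each sample left out.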

Additional observations from a re-analysis of the deposited data

How the results depend on the processing

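Counts are genes called. With the spiked-in transcripts 18 collagen chains were higher and 9 lower, against 12 and 15 as reported; fibrillar chains were 4 higher and 3 lower, and no type VI chain was lower (0). Fibrillar chains called higher numbered 4 after quantile normalization and 2 with scaling to the median, array weights or the authors' deposited table. With probes above background on all 6 arrays, 1 type VI chain was higher. Leaving out 1 sample gave 10 to 12 collagen chains higher and 14 to 17 lower, 1 to 2 fibrillar chains higher (2 without Magic-F1 replicate 2), 7 to 8 lower, and 2 to 4 FACIT chains lower; without control replicate 3, where FACIT reached 4, 35 collagen genes were tested in place of 33.

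Pair balances under normexp were -0.76 for Col6a2 and Col6a3, -0.68 for Col8a1 and Col8a2, -0.58 for Col11a1 and Col11a2 and 2.12 for Col15a1 and Col18a1. The authors' table gave -1.19 for Col11a1 and Col11a2 and 2.60 for Col15a1 and Col18a1. With the median over a gene's probes they were -0.30 for Col1a1 and Col1a2, -0.13 for Col5a1 and Col5a2, -0.036 for Col3a1 and Col5a2 (the sign turned), -0.41 for Col4a1 and Col4a2, 1.12 for Col6a1 and Col6a2 and -1.77 for Col6a2 and Col6a3. The cause was not tested.

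Log2 changes turned sign as follows. Normexp gave Col23a1 -0.17, Col11a2 -0.17 and Col25a1 -0.090. Quantile normalization gave Col1a2 0.24 and Col3a1 0.32. The spiked-in transcripts gave Col1a2 0.075, Col3a1 0.29, Col6a1 0.43, Col5a2 0.21, Loxl1 0.083, P4ha1 0.33 and P3h3 0.23. The median over probes gave Col12a1 -0.50 and Col4a6 1.29. Col23a1 was -0.25 within slide 1; leaving out 1 sample gave -0.24 to 0.71, negative without each Magic-F1 replicate (-0.22, -0.23 and -0.24).

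Replicate numbers are shared between groups, and the replicate 2 arrays of both groups were on a slide of their own. Deviations of same-numbered arrays from their group means correlated at -0.003, 0.108 and 0.069. Arrays of unlike number correlated at -0.115 to 0.048. With so few arrays, and with slide following replicate 2, these values cannot settle whether the numbers pair the samples. With the replicate block 11 collagen chains were higher and 15 lower; Col25a1 lost its call (adjusted p = 0.0955 in limma).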
